A study of Malus domestica with 12 samples.

Results

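Small RNAs of apple buds were compared between the 2 phases of winter dormancy, ecodormancy and endodormancy, with 6 libraries in each phase and all 12 libraries of the series in use. The buds were apical dormant buds of Malus domestica "Golden Delicious", and each library pooled 9 buds from 3 trees. Endodormancy comprised Early Endodormancy (Stage 1, 665 chilling hours, libraries A to C) and Late Endodormancy (Stage 2, 1098 chilling hours, D to F). Ecodormancy comprised Early Ecodormancy (Stage 3, 1280 chilling hours, G to I) and Late Ecodormancy (Stage 4, 1395 chilling hours, J to L). All trees were of 1 cultivar in 1 orchard and winter, and no treatment was given. Small RNAs had been purified through their association with ARGONAUTE (AGO) proteins. Stages are those of the sample labels, which place Stage 3 in ecodormancy. The 3 libraries of a stage share a sampling date, so a phase and its 2 dates cannot be told apart, nor can fewer cells of a type and less RNA per cell in these whole buds.

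Endodormant buds are held back by conditions inside the bud and need chilling before they can grow, whereas ecodormant buds have met that need and wait for warmth. Plant microRNAs (miRNAs) are cut from a hairpin precursor as a duplex of a mature strand and a star strand, and the mature strand guides AGO to messenger RNAs that carry a nearly complementary site. Many conserved miRNAs act on families of transcription factors that set meristem activity, organ form and hormone response.

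The sequences that carry the results are given 5′ to 3′ as DNA letters, with bases 2 to 8, the seed, in capitals. First come the 3 small RNAs that passed the test of the phases, and mdm-miR159a, of 20 nucleotides. The rarer ptc-miR159d is the same sequence with a last base added.
t11329296_x5768: tATATGGAgggaaatatggtg
mdm-miR5225c: tCTGTCGTgggtgagatggtgc
ptc-miR159d: cTTGGATTgaagggagctcct
mdm-miR159a: cTTGGATTgaagggagctcc

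For comparison with the miR159 forms that begin with C, the most abundant miR159 of these buds, which begins with T, and one more C form are shown next.
mdm-miR159d: tTTGGATTgaagggagctcta
bdi-miR159a-3p: cTTGGATTgaagggagctct
All 4 share the seed TTGGATT. Counted from the 5′ end of mdm-miR159d, mdm-miR159a differed by T1C and T20C, ptc-miR159d by T1C, T20C and A21T, and bdi-miR159a-3p by T1C. The 20 bases of mdm-miR159a are the first 20 of ptc-miR159d, so these 2 differ only in the presence of a last base. Reads of such near-identical forms can pass from one to another through a sequencing error or the trimming of an end, and their levels are therefore less certain than those of unrelated sequences.

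A second pair with the same difference at the first base belonged to miR858, where ppe-miR858 differed from ath-miR858b by T1C.
ath-miR858b: tTCGTTGTctgttcgaccttg
ppe-miR858: cTCGTTGTctgttcgaccttg

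miR166 was the family that dominated every library. Its main form, mdm-miR166d, is shown with 2 other forms that had a log2 fold below 0 at an unadjusted p up to 0.05 and did not pass after adjustment.
mdm-miR166d: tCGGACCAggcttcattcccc
sit-miR05-npr: tTTCGGACcaggcttcattcc
t09078889_x1129: tTGGATCAggcttcattcccc
The form named sit-miR05-npr began 2 bases upstream of mdm-miR166d and shared 19 identical bases with it, which moved the seed from CGGACCA to TTCGGAC. t09078889_x1129 was aligned end to end with mdm-miR166d and differed by C2T and C6T.

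The hairpins of the 2 leading small RNAs are shown whole, with the mature strand in capitals. The precursor of t11329296_x5768 lies on chromosome 8, plus strand, at 11111445 to 11111630 of the GDDH13 v1.1 genome, and that of mdm-miR5225c on chromosome 9, plus strand, at 2851317 to 2851414.
t11329296_x5768: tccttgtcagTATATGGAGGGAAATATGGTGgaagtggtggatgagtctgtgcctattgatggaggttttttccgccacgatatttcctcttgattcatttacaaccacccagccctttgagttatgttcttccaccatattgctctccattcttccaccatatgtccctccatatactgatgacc
mdm-miR5225c: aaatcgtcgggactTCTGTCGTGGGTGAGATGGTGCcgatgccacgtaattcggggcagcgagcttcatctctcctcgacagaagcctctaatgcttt
In the predicted fold, 20 of the 21 bases of t11329296_x5768 and 19 of the 22 of mdm-miR5225c were paired. The study's own folding did not place t11329296_x5768 among the sequences with an optimal miRNA stem-loop. The study therefore left it out of its later steps, and pairing alone does not make it a miRNA. Whether these hairpins lie in a gene was not examined, because no annotation of this build was used.

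Depth was the number of reads assigned to mature sequences, between 561723 and 2307267 a library, with a median of 1329376 in endodormancy and 1154128.5 in ecodormancy. A count of 0 allowed up to 3 reads, which is 1.73 to 3.69 CPM (reads scaled to a TMM-adjusted library total, the scale of all levels below), and such limits cover counting error only. Libraries D and L stood apart within their stages. The miR165/miR166 family took 89.9% of their mature reads in D and 91.4% in L, against 66.2% to 86.8% elsewhere, and 174 and 191 sequences were detected, against 235 to 276. No 2 libraries of a stage agreed within sampling noise (chi-square per degree of freedom, at least 24.8 over 12 pairs). The libraries of a stage were biological replicates, and p-values of the main edgeR fit measure the spread between these pools of buds. The permutation p-values split the 12 libraries without regard to stage, so they mix that spread with differences between dates. Neither measures the spread between dates of a phase, of which there were only 2.

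Of 370 distinct mature sequences, 238 passed the filter on low counts and were tested with edgeR's quasi-likelihood test, with levels as CPM after TMM scaling and the log2 fold as ecodormancy over endodormancy. At a Benjamini-Hochberg adjusted p under 0.05, 3 sequences differed between the phases (1.26% of those tested), and all 3 were higher in ecodormancy. At an unadjusted p up to 0.05 there were 24 (10.1%), 15 higher (6.3%) and 9 lower (3.78%) in ecodormancy. The median log2 fold of all 238 was 0.07. The split depended on the scaling, with 16 of 19 higher (84.2%) under median-of-ratios scaling and 34 of 36 (94.4%) under the total of mature reads, which raised the median of all sequences by 0.59 on the log2 scale. In 3 sequences (1.26%), all 6 ecodormancy libraries were above all 6 endodormancy libraries, and in 0 (0%) all were below.

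**Figure D1:**
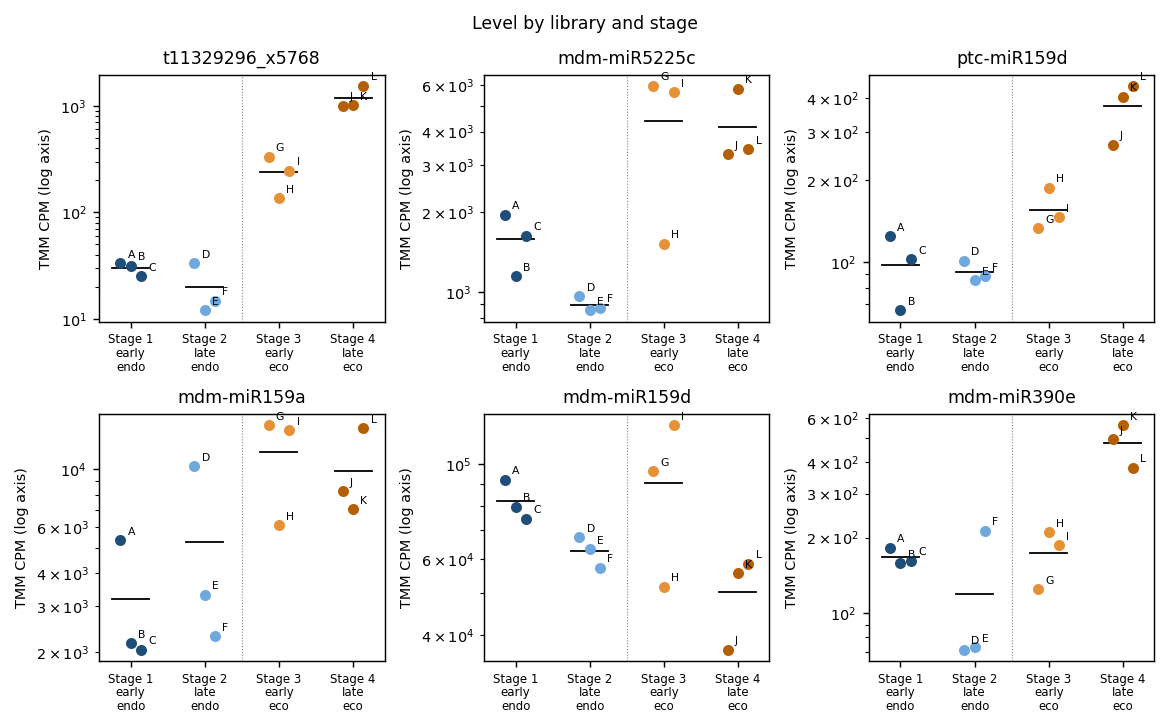
TMM CPM on a log axis of 6 small RNAs in each library (points with letters), by stage, with the stage mean as a bar. The ecodormancy libraries of t11329296_x5768 (137 to 1540.3 CPM) and ptc-miR159d (133 to 443 CPM) lie above all endodormancy libraries, while mdm-miR159d overlaps between the phases.

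The smallest p belonged to t11329296_x5768, an unnamed sequence of 21 nucleotides. In endodormancy its level was 33.2, 31.5 and 25.1 CPM at Stage 1 and 33.4, 12.02 and 14.8 CPM at Stage 2. In ecodormancy it was 332, 137 and 246 CPM at Stage 3 and 999, 1009 and 1540.3 CPM at Stage 4. The phases did not overlap, and neither did the 2 ecodormancy stages.

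The log2 fold of t11329296_x5768 was 4.43 (SE 0.375, edgeR adjusted p = 1.53e-08), or 21.5-fold. It was 3.27 for Stage 3 alone against endodormancy and 5.58 for Stage 4 alone (edgeR adjusted p = 7.42e-06 and 1.28e-09), comparisons that share the endodormancy libraries. Stage 4 exceeded Stage 3 by 2.31 on the log2 scale (edgeR adjusted p = 0.0188), the only one of the 238 sequences to do so at an adjusted p under 0.05 (0.42%). These stage contrasts were added after the values were seen. The star strand of this hairpin, from its 3p arm, carries the name mdm-miR10987, so the sequence measured here is from the arm opposite to the named one. Whether the named arm also changed was not tested, because star-strand counts were not used. Relative to mdm-miR1511, an abundant miRNA of these buds, t11329296_x5768 gave 0.598 to 4.54 reads per 1000 in endodormancy. In ecodormancy it gave 6.70 to 182, again without overlap. D (4.54) and L (182) gave the highest ratio of their phases. In them mdm-miR1511 itself was low, at 7361 and 8448 CPM, against 20093.5 to 32218 CPM elsewhere. For mdm-miR5225c, the ratio to mdm-miR1511 overlapped, at 39.1 to 131 per 1000 in endodormancy and 74.3 to 408 in ecodormancy. The ratios between sequences, here and below, were chosen after the values were seen.

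mdm-miR5225c, a miRNA of 22 nucleotides, rose 3.60-fold. Its level was 1952, 1148 and 1623 CPM at Stage 1 and 964, 851 and 871 CPM at Stage 2. It was 5947, 1516 and 5635 CPM at Stage 3 and 3284, 5806 and 3443 CPM at Stage 4. Library H of Stage 3 fell within the range of Stage 1, and the other 5 ecodormancy libraries were above all of endodormancy. The log2 fold was 1.85 (SE 0.312, edgeR adjusted p = 0.000737), with 1.88 for Stage 3 and 1.82 for Stage 4 against the same endodormancy libraries.

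The study's target prediction lists, for mdm-miR5225c, the same site in 2 apple genes annotated as ACA10, an autoinhibited calcium pump, MD13G1241000 on chromosome 13 and MD16G1246100 on chromosome 16. The site pairs with 17 Watson-Crick and 4 G:U pairs and 1 mismatch over its 22 bases. The level of these messenger RNAs was not measured here.
ACA10: gcgccaucucuccugcgacagg

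The hairpin of mdm-miR3627b lies 2921 bases before that of mdm-miR5225c on the same strand of chromosome 9, at 2848282 to 2848395. Unlike that of mdm-miR5225c, its log2 fold was below 0, and it was rare. Its reads were 26, 0 and 20 at Stage 1, 35, 0 and 14 at Stage 2, 0 in all 3 libraries of Stage 3, and 1, 9 and 0 at Stage 4. Of its 105 reads, 95 were in endodormancy, but 2 libraries there had none, so the phases overlapped. The edgeR log2 fold was -4.67 (SE 1.74) with an unadjusted p = 0.0145 and an adjusted p = 0.314, and its size depends on the prior count because most ecodormancy libraries were at 0. Without D it was -4.04 and without K -5.83.

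miR159 guides the cleavage of GAMYB-like MYB messenger RNAs, which in Arabidopsis mediate responses to gibberellin and abscisic acid. ptc-miR159d rose 2.53-fold. Its level was 124, 66.4 and 102 CPM at Stage 1 and 101, 85.8 and 88.9 CPM at Stage 2. It was 133, 187 and 146 CPM at Stage 3 and 269, 404 and 443 CPM at Stage 4. The phases did not overlap, and Stage 4 was above Stage 3 in every library. The log2 fold was 1.34 (SE 0.331, edgeR adjusted p = 0.0436). The adjusted p stayed under 0.05 in 11 of 23 alternatives, and with 1 library left out it ranged from 0.0127 to 0.231 and passed only without A or without D.

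mdm-miR159a, 20 nucleotides long, was the most abundant of the C forms. It ranged from 2044 to 10259 CPM in endodormancy, with a median of 2812, and from 6120.0 to 14763 CPM in ecodormancy, with a median of 11186. Library D was the only endodormancy library within the ecodormancy range. The log2 fold was 1.39 (SE 0.369) with an edgeR adjusted p = 0.0651, and 11 of 23 alternatives gave an adjusted p under 0.05. Without D the log2 fold was 2.04 (edgeR adjusted p = 0.0026), and without F it was 1.18 (edgeR adjusted p = 0.184). The highest edgeR adjusted p with 1 library left out was 0.232, without B. Another C form, bdi-miR159a-3p, ranged from 0.858 to 25.1 CPM in endodormancy (median, 5.36) and from 0.678 to 46.3 CPM in ecodormancy (median, 35.6). Only library L, the lowest of all 12, kept its phases from separating. Its log2 fold was 2.47 (SE 0.981, edgeR unadjusted p = 0.0198, adjusted p = 0.363).

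The T form mdm-miR159d, with 1120521 reads, did not share this pattern. It ranged from 57295 to 91794 CPM in endodormancy and from 36895 to 123178 CPM in ecodormancy, with a log2 fold of -0.09 (SE 0.26, edgeR adjusted p = 0.983), whose sign turned under several scalings. Within a library, and thus free of scaling, mdm-miR159a gave 27.2 to 152 reads per 1000 of mdm-miR159d in endodormancy and 115 to 246 in ecodormancy, with medians of 46.3 and 140.0. ptc-miR159d gave 0.835 to 1.55 reads per 1000 in endodormancy and 1.18 to 7.57 in ecodormancy, where G and I of Stage 3 (1.38 and 1.18) overlapped with endodormancy and the 3 libraries of Stage 4 (7.26 to 7.57) stood together. The hairpins of mdm-miR159a lie on chromosome 1, plus strand, at 18000169 to 18000347 and on chromosome 7, plus strand, at 20859356 to 20859533, and that of mdm-miR159d on chromosome 14, plus strand, at 31363297 to 31363521. Reads of mdm-miR159a cannot be divided between its 2 loci.

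**Figure D2:**
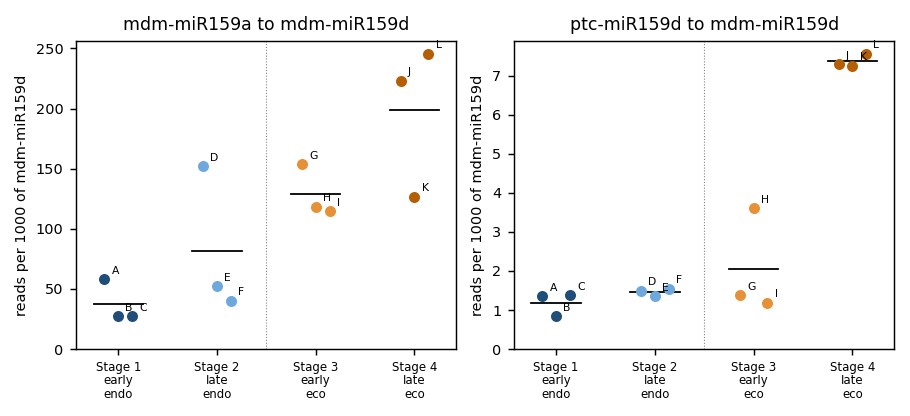
Reads of mdm-miR159a and of ptc-miR159d per 1000 reads of mdm-miR159d in each library, by stage, with the stage mean as a bar and axes from 0. mdm-miR159a lies at 115 to 246 in ecodormancy with D at 152 among the endodormancy libraries, and ptc-miR159d at 7.26 to 7.57 in all Stage 4 libraries.

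The site predicted by the study for mdm-miR159a in MYB33 (MD07G1085000, chromosome 7) and MYB65 (MD02G1269700, chromosome 2) has the same letters in both genes, and 18 of its 20 bases form Watson-Crick pairs. Both genes encode GAMYB-like factors, and their messenger RNAs were not measured here. The study itself mapped cleavage within the MYB65 site from cloned RNA ends, and cites degradome sequencing for the MYB33 site. It also followed both messenger RNAs and the mdm-miR159a precursor by quantitative PCR.
MYB33 and MYB65: ggagcucccuucacuccaau

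miR858 acts on R2R3 MYB factors, among them regulators of flavonoid synthesis. ath-miR858b ranged from 478 to 1189.9 CPM in endodormancy and from 408 to 3049 CPM in ecodormancy. The high values were G and I of Stage 3 (2025 and 3049 CPM), and Stage 4 overlapped with endodormancy, so the log2 fold was 1.41 for Stage 3 and 0.18 for Stage 4. Over both stages it was 0.80 (SE 0.322, edgeR unadjusted p = 0.0216, adjusted p = 0.367). ppe-miR858 was rarer, from 0 to 19.1 CPM in endodormancy and from 14.8 to 100.1 CPM in ecodormancy. Only H, at 14.8 CPM, overlapped with endodormancy. The log2 fold of ppe-miR858 was 2.70 (SE 0.936, edgeR unadjusted p = 0.0088, adjusted p = 0.23). It ranged from 2.28 without I to 3.64 without E. A miR159 or miR858 name was carried by 17 tested sequences, including mdm-miR319a, which also has a miR319 name. Of the 17, 5 were higher at an unadjusted p up to 0.05 and 0 were lower, against 15 and 9 of all 238. Their median log2 fold was 0.39, against 0.07 for all sequences. All 4 members of miR858 had a log2 fold above 0, against 129 of all 238, with 2 at an unadjusted p up to 0.05. Among them, ath-miR858b differs from ppe-miR858 by 1 base and from mdm-miR858 by 2, so these are not separate observations. The 3 miR159 sequences among the 5 are the near-identical C forms, which are not separate observations either. These lists were written with earlier results of these data known, so the counts are a description.

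**Figure D3:**
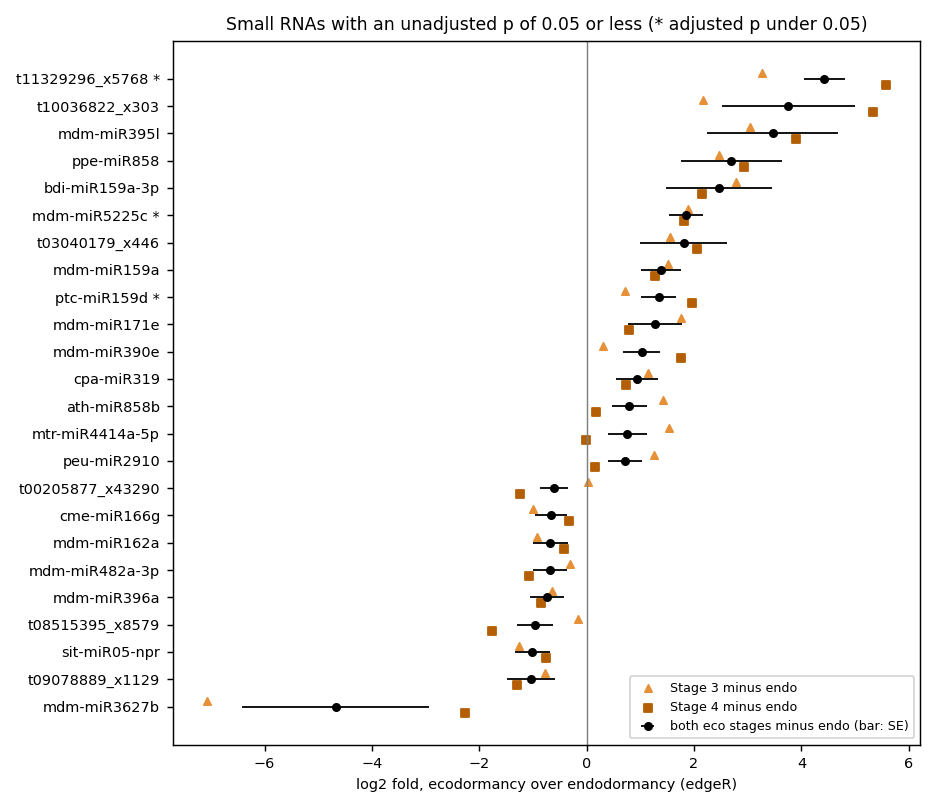
edgeR log2 folds of the 24 small RNAs with an unadjusted p up to 0.05, for both ecodormancy stages (circles, with SE bars), Stage 3 alone (triangles) and Stage 4 alone (squares), each against endodormancy. The 3 starred sequences have an adjusted p under 0.05, and t11329296_x5768 has the largest positive log2 fold, 4.43.

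miR390 triggers small interfering RNAs that act on auxin response factors. mdm-miR390e ranged from 71.4 to 213 CPM in endodormancy and stood at 124, 210.5 and 186 CPM at Stage 3 and 495, 563 and 379.8 CPM at Stage 4. Stage 3 overlapped with endodormancy and Stage 4 did not. The log2 fold over both stages was 1.03 (SE 0.344, edgeR unadjusted p = 0.00687, adjusted p = 0.23). For Stage 4 alone it was 1.76 (edgeR adjusted p = 0.0141), and for Stage 3 alone 0.30 (edgeR adjusted p = 0.90). The other auxin-related families were miR160, miR167 and miR393, and in the whole list 1 of 12 tested sequences was higher at an unadjusted p up to 0.05 and 0 were lower, against 6.3% and 3.78% of all 238, a count too small to set the list apart.

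Stage 4 alone gave 7 sequences with an adjusted p under 0.05 against endodormancy (2.94%) and Stage 3 alone gave 2 (0.84%), in contrasts added after the values were seen. Beside those already described, the Stage 4 sequences were t10036822_x303, t08515395_x8579 and t00205877_x43290. t10036822_x303, from a hairpin on chromosome 16, minus strand, at 2580371 to 2580477, was at 0, 0 and 1.00 CPM at Stage 1, 0, 12.9 and 6.91 CPM at Stage 2, 0, 4.92 and 16.5 CPM at Stage 3, and 52.6, 42.8 and 98.3 CPM at Stage 4. All Stage 4 libraries were above all others, although only 303 reads were counted in total. Its log2 fold over both stages was 3.75 (SE 1.24, edgeR unadjusted p = 0.00623, adjusted p = 0.23), and it was 4.91 without C and 2.93 without I.

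miR164 acts on NAC factors of the CUP-SHAPED COTYLEDON group, which set organ boundaries. t08515395_x8579 is the 3p strand of a hairpin on chromosome 12, plus strand, at 29101808 to 29101937 whose other strand is mdm-miR164c.
t08515395_x8579: cACTTGCTccccttctccaac
At Stage 4 it stood at 157, 188 and 279 CPM, below all 6 endodormancy libraries (430.0 to 1322 CPM), while Stage 3 (396 to 914 CPM) overlapped with them. mdm-miR164c was at 92.8, 151 and 140.4 CPM at Stage 4, with endodormancy at 144 to 658 CPM. Over both ecodormancy stages the log2 fold was -0.97 (SE 0.335, edgeR unadjusted p = 0.00844, adjusted p = 0.23) for t08515395_x8579 and -0.69 (SE 0.338, edgeR unadjusted p = 0.0544, adjusted p = 0.487) for mdm-miR164c. Both log2 folds were below 0 and neither passed the test. mdm-miR164c is listed at 4 hairpins and t08515395_x8579 at 1, so the reads of mdm-miR164c cannot be assigned to this duplex.

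t00205877_x43290 is a sequence of 24 nucleotides, a length that in plants is typical of small RNAs guiding DNA methylation. It was at 2464 to 5216 CPM in endodormancy, 3158, 5186 and 2227 CPM at Stage 3 and 1375, 1604 and 1414 CPM at Stage 4. Stage 4 was below all other libraries, with a log2 fold of -1.24 against endodormancy (edgeR adjusted p = 0.0452), while over both stages it was -0.60 (SE 0.259, edgeR unadjusted p = 0.0302, adjusted p = 0.405). The other sequence of 24 nucleotides among the 24, t03040179_x446 on chromosome 16, plus strand, at 35337533 to 35337693, was at 0 to 18.1 CPM in endodormancy and 19.1 to 68.9 CPM in ecodormancy. Its phases did not overlap, with G at 19.1 CPM close to the endodormancy values, but its log2 fold of 1.81 had an SE of 0.806 (edgeR unadjusted p = 0.0355, adjusted p = 0.433).

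miR165 and miR166 act on the class III HD-ZIP factors that pattern meristems, leaves and vessels. The family took 82.0% to 89.9% of the mature reads in endodormancy and 66.2% to 91.4% in ecodormancy, with means of 85.5% ± 2.77 and 78.1% ± 8.37 (SD, n = 6). G and I of Stage 3 (72.9% and 66.2%) were lowest and L of Stage 4 was highest, and the difference of -7.40 percentage points had an exact permutation p of 0.0671 (adjusted p = 0.121 over 9 shares). Without library L, every ecodormancy library was below every endodormancy library, the difference was -10.1 percentage points and the adjusted p 0.00487. Without any other single library the difference was between -8.09 and -5.04 percentage points, with an adjusted p between 0.0974 and 0.238. Of the 16 members tested, 3 had a log2 fold above 0, against 129 of all 238, and the median was -0.55 against 0.07. mdm-miR166d alone held 13036982 of the 13120782 reads of the family. Near-identical forms can receive reads from it through an error or a trimmed end, so the members are not separate observations. These values also depended on the scaling. The summed reads of the family differed by -0.63 on the log2 scale under TMM and by -0.14 under the total of mature reads.

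Among the miR166 forms, sit-miR05-npr ranged from 412 to 1184 CPM in endodormancy (median, 517) and from 212 to 572 CPM in ecodormancy (median, 263), with a log2 fold of -1.01 (SE 0.325, edgeR adjusted p = 0.23). L was the only ecodormancy library at or above the lowest endodormancy library. t09078889_x1129 ranged from 59.2 to 137 CPM and from 27.9 to 78.1 CPM (log2 fold -1.04, SE 0.45, edgeR adjusted p = 0.405). cme-miR166g, mdm-miR166d without its last base, had a log2 fold of -0.66 (SE 0.297, edgeR adjusted p = 0.433). D and L, which carried the most miR166, were the highest libraries of their phases for sit-miR05-npr and cme-miR166g. Per 1000 reads of mdm-miR166d, sit-miR05-npr gave 0.456 to 0.848 reads in endodormancy and 0.388 to 0.514 in ecodormancy, so its ratio to the main form overlapped between the phases.

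Other families of meristem and organ form gave single sequences at an unadjusted p up to 0.05. mdm-miR171e, of a family that acts on GRAS factors of the HAIRY MERISTEM group, ranged from 13.6 to 97.8 CPM in endodormancy and from 33.9 to 284 CPM in ecodormancy (log2 fold 1.28, SE 0.50, edgeR adjusted p = 0.363). cpa-miR319, of a family that acts on TCP factors of leaf growth, ranged from 38.2 to 169.9 CPM and from 103 to 239 CPM (log2 fold 0.93, SE 0.385, edgeR adjusted p = 0.38). mdm-miR396a, of a family that acts on growth-regulating factors, ranged from 218 to 559.5 CPM and from 154 to 346 CPM (log2 fold -0.74, SE 0.315, edgeR adjusted p = 0.405). All 3 overlapped between the phases. In the list as a whole, 2 of 44 tested sequences were higher and 2 lower at an unadjusted p up to 0.05, against 6.3% and 3.78% of all 238, with a median log2 fold of -0.15 against 0.07.

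Among families of nutrition and stress, mdm-miR395l, which acts on genes of sulfate uptake and assimilation, ranged from 0 to 12.4 CPM in endodormancy and from 0 to 45.4 CPM in ecodormancy. H of Stage 3 was at 0 and the other 5 ecodormancy libraries, from 17.4 CPM, were above all of endodormancy. The log2 fold was 3.47 (SE 1.22, edgeR unadjusted p = 0.00965, adjusted p = 0.23) from 224 reads in total. Without D it was 4.59, and with the 2 phases as groups 2.21 (edgeR unadjusted p = 0.0716). Of the small RNA machinery families, mdm-miR162a, which acts on the processing enzyme DICER-LIKE1, ranged from 168 to 339 CPM in endodormancy and from 116 to 265 CPM in ecodormancy (log2 fold -0.68, SE 0.324, edgeR unadjusted p = 0.049, adjusted p = 0.48). mdm-miR482a-3p, of a family that acts on disease resistance genes, ranged from 476 to 1713 CPM and from 386 to 1040.5 CPM (log2 fold -0.69, SE 0.319, edgeR adjusted p = 0.446). Both overlapped between the phases.

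G and I of Stage 3 stood above H of the same stage in several of these sequences. Beside ath-miR858b, this was so for mtr-miR4414a-5p, at 1611 and 2807 CPM in G and I against 915 CPM in H, and for peu-miR2910, at 1116 and 1452 against 361 CPM. Endodormancy lay between 349 and 1254 CPM for mtr-miR4414a-5p and between 255 and 529 CPM for peu-miR2910. Stage 4 lay within or near those ranges, at 287 to 974 and 408 to 511 CPM. The log2 fold over both stages was 0.76 (SE 0.357, edgeR adjusted p = 0.466) for mtr-miR4414a-5p and 0.71 (SE 0.324, edgeR adjusted p = 0.44) for peu-miR2910. The same 2 libraries were above H in mdm-miR5225c and mdm-miR159a, and the part of single libraries in these results was not tested beyond leaving each out.

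Reads were also summed over families and compared by an exact two-sided permutation test over the libraries. Of 29 families tested, 4 had an unadjusted p up to 0.05 (13.8%) and none an adjusted p under 0.05, the lowest being 0.188. The smallest p possible was 0.00216, which adjusted over 29 families could not pass for a single family. miR5225 differed by 1.71 on the log2 scale (exact permutation p = 0.00649) and miR390 by 1.11 (p = 0.0476). miR162 differed by -0.65 (exact permutation p = 0.0281) and miR165/miR166 by -0.63 (p = 0.0498). Under the total of mature reads, the differences were 2.20 for miR5225, 1.605 for miR390, -0.16 for miR162 and -0.14 for miR165/miR166. miR858 differed by 0.77 (exact permutation p = 0.208). With 11 reads, miR169 was not tested.

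**Figure D4:**
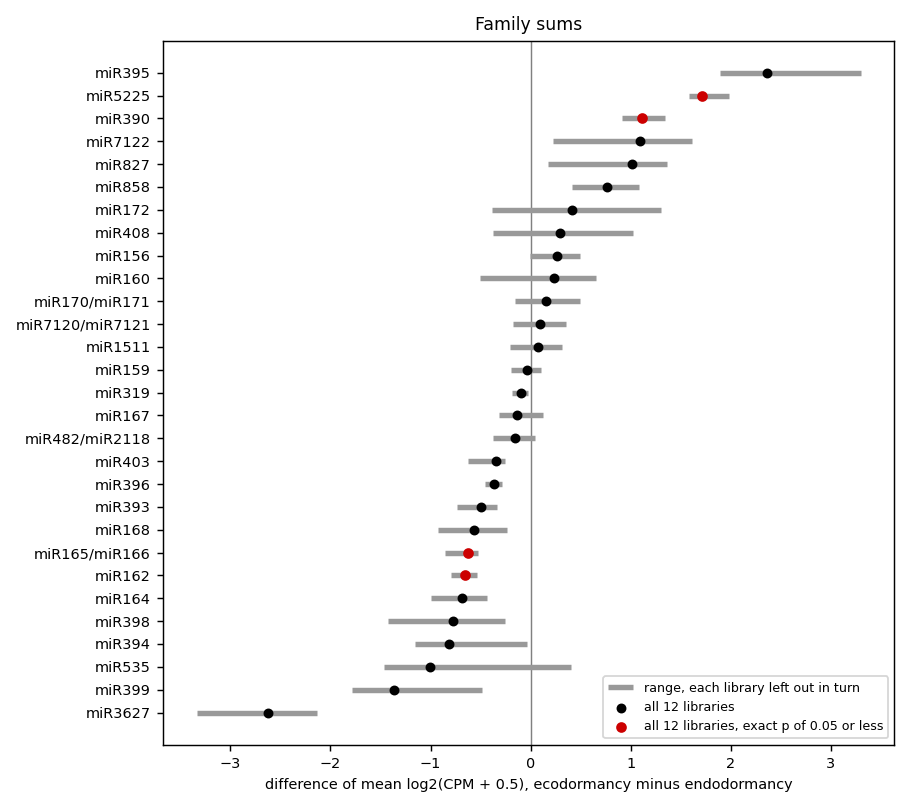
Difference of the mean log2(CPM + 0.5) of the summed reads of 29 families, ecodormancy minus endodormancy, with all 12 libraries (points, in red with an exact permutation p up to 0.05) and the range when each library is left out in turn (grey bars). miR5225 keeps a difference of 1.58 to 1.98 over these ranges, while that of miR535 crosses 0.

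The composition of the mature reads changed in length and first base. In plants the first base takes part in sorting small RNAs into AGO proteins. Of 9 shares tested, 4 had an unadjusted exact p up to 0.05 (44.4%) and 2 an adjusted p under 0.05. Sequences beginning with C took 0.777% to 1.18% of the reads in endodormancy and 1.36% to 2.90% in ecodormancy, without overlap, with means of 0.979% ± 0.175 and 2.12% ± 0.616 (SD, n = 6, exact permutation p = 0.00216, the smallest possible, adjusted p = 0.0195). Sequences of 20 nucleotides took 1.25% to 1.90% and 1.81% to 3.78%, with means of 1.58% ± 0.257 and 2.91% ± 0.761 (SD, n = 6, exact permutation p = 0.00433, adjusted p = 0.0195). L was the only ecodormancy library within the endodormancy range for length.

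Much of both shares was mdm-miR159a, which begins with C and has 20 nucleotides. It held 36.2% of the reads beginning with C in endodormancy and 60.3% in ecodormancy. Without it, the means of that share were 0.642% and 0.878%, and the exact permutation p was 0.0671. For sequences of 20 nucleotides the means without it were 1.24% and 1.66% (exact permutation p = 0.0541). In both cases the denominator was still all mature reads. Outside the miR165/miR166 family, reads beginning with C took 5.46% ± 2.30 and 9.23% ± 2.30 (SD, n = 6, exact permutation p = 0.0173, adjusted p = 0.0981). Those of 20 nucleotides took 8.71% ± 2.71 and 12.4% ± 2.53 there (SD, n = 6, exact permutation p = 0.0368, adjusted p = 0.0981). Neither share had an adjusted p under 0.05 without mdm-miR159a or outside that family. Reads of 21 nucleotides went from 95.5% to 92.8% and those beginning with U from 95.7% to 92.8% (exact permutation adjusted p = 0.0584 for both).

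**Figure D5:**
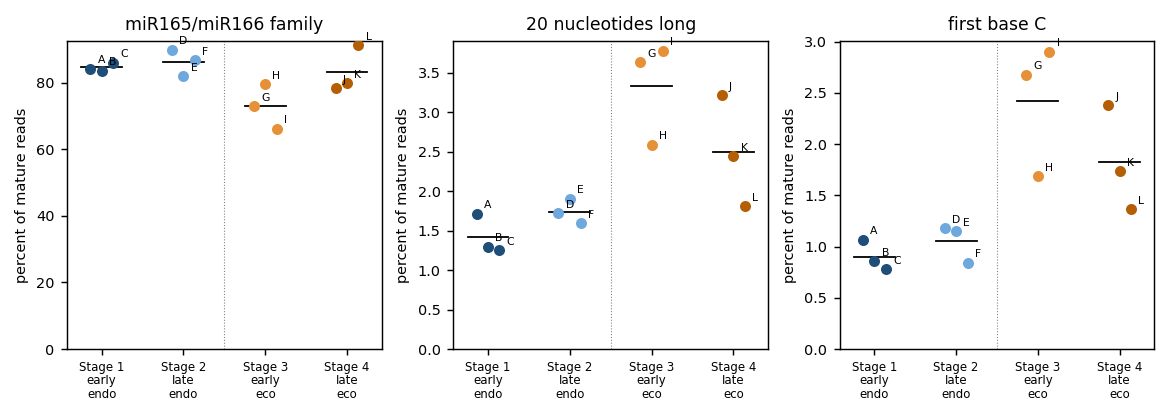
Share of the mature reads of each library, in percent and by stage, held by the miR165/miR166 family, by sequences of 20 nucleotides and by sequences beginning with C, with the stage mean as a bar. The share beginning with C lies at 1.36% to 2.90% in all ecodormancy libraries and at 0.777% to 1.18% in all endodormancy libraries.

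Differences between the 2 dates within a phase were tested in the same fit, for both phases jointly with 2 degrees of freedom. In this joint test, 0 of 238 sequences had an adjusted p under 0.05 with edgeR (0%), and 20 had an unadjusted p up to 0.05 (8.4%). The phase contrast has 1 degree of freedom, so these counts are not on the same footing as its own, and the contrast of Late against Early Ecodormancy alone called t11329296_x5768, as given above. DESeq2 gave 11 with an adjusted p under 0.05 for the dates and 8 for the phases. The sequence nearest to the threshold was t11329296_x5768 (edgeR adjusted p = 0.0594), which passed in 11 alternatives. Among the 24 sequences named here, Stage 4 was further from endodormancy than Stage 3 in 7 of the 15 that were higher and 5 of the 9 that were lower.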

How the data were processed

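Reads had been assigned by the authors with Mir-Island on GDDH13 v1.1, and the deposited raw counts of mature strands were used as they stand. The submitters' processing notes name CASAVA and Bowtie 0.12.9. Trimming and the treatment of reads with several loci are not given in the sources used here. The column headers give a number but no stage. Each column was tied to a library letter by the same counts in the paper's supplement, and to a stage by the paper's list of libraries. No replicate number could be assigned, so 1 measure was taken from each table. A further 48 columns of per-library values, with star-strand counts and normalized values, were not used. The planned comparison of star strands and the scaling by normalized values were therefore not run. The 254 known sequences and 154 from 199 de novo hairpins, 38 of them in both tables, were joined to 370 distinct sequences. A further 4 hairpin lines are not reported here.

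The test of mature counts used edgeR 4.0.16 under R 4.3.3, with filterByExpr (minimum count 10, minimum total 15), TMM, 1 mean for each stage, and a quasi-likelihood F test of the mean of Stages 3 and 4 minus that of Stages 1 and 2, or of both within-phase differences together (2 degrees of freedom). P-values were adjusted over all sequences tested. The SE of a log2 fold was its size over the square root of F. Family sums and shares were compared by exact two-sided permutation, on log2(CPM + 0.5) except for shares, with at least 60 reads required of a family. RNAfold 2.7.2 gave the folds. The tests were tested on simulated data. Named small RNAs are the sequences called before adjustment at the 0.05 level, and the most abundant one of each listed family. Members and lists were chosen with earlier results of these data known. Alternatives were other scalings (median-of-ratios, total of mature reads, total outside miR166), filters (none, or 10 reads in every library), tests (likelihood ratio, robust, DESeq2 1.42.0), the known table alone, 2 phases as groups, pseudocounts of 1 and 5, and each library left out. Tables and figures used Python 3.11.15, numpy 2.4.6, pandas 2.3.3 and matplotlib 3.10.9.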

Additional observations from a re-analysis of the deposited data

Results flagged for a closer look

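Within a phase of 6 libraries, a library was set apart when its gap to the nearest other exceeded the critical share of the range in Dixon's test. This occurred in 10 of 66 groups tested, where chance gives about 1 in 20, and 9 of the 10 were library D or L. In endodormancy, D was apart for sit-miR05-npr (1184 CPM, others 412 to 563), cme-miR166g (2808 CPM, others 1153 to 1706), mtr-miR4414a-5p (1254 CPM, others 349 to 674) and t03040179_x446 (0 CPM, others 15.4 to 18.1). In ecodormancy, L was apart for sit-miR05-npr (572 CPM, others 212 to 271), cme-miR166g (2132 CPM, others 792 to 983) and bdi-miR159a-3p (0.678 CPM, others 30.8 to 46.3), and in its shares of reads beginning with A (1.28%, others 4.39% to 6.12%) and U (97.2%, others 91.1% to 92.8%). Library K was apart for the rare mdm-miR3627b (7.14 CPM, others 0 to 1.03).

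The 2 ecodormancy stages differed for t11329296_x5768, with a log2 fold of 2.31 for Late over Early Ecodormancy (edgeR adjusted p = 0.0188). All 3 late libraries were above all 3 early ones.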

How the results depend on the processing

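t11329296_x5768 kept an adjusted p under 0.05 in 22 of 23 alternatives (it is not in the known table used in the other) and mdm-miR5225c in all 23, with log2 folds of 4.27 to 4.96 and 1.70 to 2.36. The count of 3 at an adjusted p under 0.05 was 6 with no filter, 5 with 10 reads in every library, 7 by likelihood ratio, 8 by DESeq2, and 2 to 4 without 1 library. The 15 higher and 9 lower at an unadjusted p up to 0.05 became 34 and 2 under the total of mature reads, 23 and 3 with no filter, 28 and 4 with DESeq2, and 11 to 25 and 3 to 16 without 1 library (16 lower without L). There were 3 lower under median-of-ratios and with 10 reads in every library, and 4 with 2 phases as groups. Between dates, the 0 at an adjusted p under 0.05 became 1 under median-of-ratios, total outside miR166, 10 reads in every library, likelihood ratio and robust estimation, 3 with no filter, 11 with DESeq2 and 0 to 6 without 1 library (6 without H). The 20 before adjustment became 10 under the total of mature reads, 32 with DESeq2 and 14 to 30 without 1 library. mdm-miR159d turned to 0.017 under median-of-ratios, 0.017 with DESeq2, 0.38 under the total of mature reads, 0.050 with no filter and 0.056 with 10 reads in every library, and ranged from -0.21 to 0.11 without 1 library. The 4 families called before adjustment became 2 under median-of-ratios and the total of mature reads and 1 to 4 without 1 library. The 2 shares at an adjusted p under 0.05 became 0 outside miR166 and, added after seeing the data, 0 without mdm-miR159a (2 before adjustment), and 2 to 8 without 1 library (8 without L, 4 to 8 before adjustment). Non-overlap rose from 3 to 7 above under the total of mature reads and from 0 to 2 below under the total outside miR166, and was 3 to 8 above (8 without H) and 0 to 10 below (10 without L) without 1 library. The cause of these shifts was not tested.

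Chosen after seeing the data, leaving out D and L gave 6 sequences at an adjusted p under 0.05, 35 higher and 13 lower before adjustment, 1 and 40 between dates (adjusted and not), 6 shares, 7 above and 12 below without overlap, and 0.0020 for mdm-miR159d. Late Ecodormancy alone gave 7 sequences. No paired analysis was possible because the columns carry no replicate number. Of the 24 sequences at an unadjusted p up to 0.05, 9 stayed there whichever library was left out, and 15 did not for at least 1 library. Sequences near the floor of a library are limited by depth.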

Other observations

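The unnamed sequences of 24 nucleotides, 93 of which were tested, gave 1 sequence higher and 1 lower in ecodormancy at an unadjusted p up to 0.05, with a median log2 fold of 0.12. Among all 238 sequences tested, 15 were higher (6.3%) and 9 lower (3.78%), with a median of 0.07. The 20 unnamed sequences of other lengths gave 2 higher and 2 lower, with a median of -0.15. Of the 125 tested sequences with a database name, 12 were higher and 6 lower, with a median of 0.04, so that this group holds 18 of the 24 sequences called in all. Of families of phase change (miR156, miR172 and miR535), 7 sequences were tested, with a median log2 fold of 0.11 and 0 in either direction at this threshold with edgeR, too few to be read against the 10.1% of all 238. Those of the small RNA machinery (miR162, miR168 and miR403) had 1 of 5 log2 folds above 0, against 129 of all 238, with a median of -0.42. These are also too few to be read, and the scaling mattered. Under the total of mature reads, the family sums differed by -0.16 for miR162, -0.08 for miR168 and 0.14 for miR403.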
